A study of Mus musculus with 9 samples.

Results

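The cytochrome P450 genes were read in RNA of whole mouse kidney, as the rows of the deposited count table whose mouse symbol is Cyp followed by a family number, a subfamily letter and a member number. Of 56305 gene identifiers in the table, 98 carried such a symbol, and 47 of these reached 10 counts in at least 3 libraries and are described here. The other 51 did not reach that count, and 23 of them had 0 counts in every library. Nearest to the limit were Cyp2c69 and Cyp26a1 inside it, for which the third highest count over the 9 libraries was 10 and 12, and Cyp2j8 outside it, where that count was 9. No member passed through the libraries of 1 group alone (0 of 47), and 39 had at least 10 counts in all 9 libraries. Cyp51 carries no subfamily letter and so falls outside the symbol rule. Its values stand beside the members and are not counted with them.

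The 9 libraries fell into 3 groups of 3. The IRI KO mice carried a conditional Pfkfb3 knockout of proximal tubular cells (CKO or ΔPTC in the labels) and were sampled at day 14 after ischaemia-reperfusion injury (IRI), made by clamping both renal arteries for 30 min. The IRI WT mice were littermate controls with intact Pfkfb3 at day 14 after the same injury. The sham WT mice had intact Pfkfb3 and a sham procedure. No group of sham-operated knockouts was analysed here, so an effect of the knockout without injury cannot be told apart from one that needs injury. The Cre driver, the age and the strain were not given in the sources used here, and no label states the sex. Nothing in the labels shows whether each library is a separate animal, so p-values measure the spread between these libraries, which may be technical.

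Cytochromes P450 are haem enzymes that insert an oxygen atom into fatty acids, sterols, vitamins and drugs. The microsomal members take electrons from the reductase Por, and the mitochondrial ones from ferredoxin. In the kidney most of their capacity lies in the proximal tubule, where members of subfamilies 2c and 2j turn arachidonic acid into epoxides, those of 4a hydroxylate its end carbon, and Cyp27b1 and Cyp24a1 make and destroy the vitamin D hormone. Several members of the mouse kidney are known to depend on androgens.

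Some members are close copies of each other, which bears on how far their counts can be told apart. P450s bind haem through a cysteine, which in 45 of the 48 genes (the members and Cyp51) lay in the signature Phe-x-x-Gly-x-x-x-Cys-x-Gly. The coding sequence of Cyp2b10, Cyp2s1 and Cyp20a1 held no exact match to this stretch, which does not show that they lack the cysteine. The 30 bases of that stretch are printed for the genes on which the results turn, 5′ to 3′ from the GENCODE transcripts of mouse build GRCm38, with the codon of the haem-binding cysteine in capitals.
Cyp4b1: ttttctgcagggcccaggaatTGCattggg
Cyp2e1: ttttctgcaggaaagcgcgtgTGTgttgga
Cyp2j5: ttctcaatgggaaaaagagctTGTcttgga
Cyp2a4: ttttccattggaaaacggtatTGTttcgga
Cyp2a5: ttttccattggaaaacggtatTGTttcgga
Cyp2d9: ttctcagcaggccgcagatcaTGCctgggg
Cyp2d12: ttttcagcaggccgcagatcaTGCctgggg
Cyp4a10: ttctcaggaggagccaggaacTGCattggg
Cyp4a12a: ttctcaggaggagcaaggaacTGCattggg
Cyp4a12b: ttctcaggaggagcaaggaacTGCattggg
Cyp4a14: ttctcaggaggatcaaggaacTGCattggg
Cyp7b1: tttggactcggaacaagcaaaTGTccaggg
Cyp27b1: ttcggctttggcaaacggagcTGCatcggg
Cyp24a1: tttggcgtcgggaagaggatgTGCatcggg
Cyp51: tttggagctgggcgtcatcgtTGTgttgga

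Cyp4a12a and Cyp4a12b differed at 0 of these 30 bases, as did Cyp2a4 and Cyp2a5, and Cyp2d12 differed from Cyp2d9 at 1. Over the whole transcript, 35.8% of the 100-base windows of Cyp4a12a also occurred in Cyp4a12b, 20.1% of those of Cyp4a32 occurred in another gene, 11.2% of those of Cyp2a4 occurred in Cyp2a5 and 9.86% of those of Cyp2d9 occurred in another gene. The share was 0% for Cyp4a14, Cyp2j5, Cyp2j9, Cyp7b1, Cyp24a1 and Cyp27b1. How reads that fit several genes were treated was not given in the sources used here, so values of Cyp4a12a, Cyp4a12b, Cyp4a10, Cyp4a31, Cyp4a32, Cyp2a4, Cyp2a5, Cyp2c69, Cyp2d9 and Cyp4f16 are uncertain in how the counts divide between copies.

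Promoters from RefSeq on GRCm38.p6 matched 33 of the 47 members. Those without one included Cyp4a10, Cyp4a12a, Cyp4a12b, Cyp4a14, Cyp4a31, Cyp2c23, Cyp2d12, Cyp7b1 and Cyp24a1, so the shares below leave them out. For each member the start nearest to that of GENCODE was used, and for all genes the start of lowest coordinate. The shares of members and of all genes therefore rest on unlike choices of start. Each motif was searched on both strands, and none of those searched contains another. The letters GTTAAT, the core of sites for the tubule factor HNF1, stood in the 250 bases before the start of 5 of these 33 (15.2%), against 6.58% of 27025 promoters of all genes, and TATAAA in 9 (27.3%, against 12.9%). Cyp2a4 and Cyp2a5, whose windows are nearly the same, both count among the 5 and the 9. The nuclear receptor core AGGTCA stood in 3 (9.09%, against 14%) and CAAAGTCCA, a site of HNF4, in 1 (3.03%, against 0.4%). Neither the sterol-response site of the factor SREBP nor TNGCGTG, the core bound by the dioxin receptor, stood in any (0 of 33, against 0.0666% and 4.14%). A match of letters does not show that a factor binds there. The windows are printed for Cyp2a4 (chr7:26306942-26307191, plus strand), which holds GTTAAT and TATAAA in capitals, for Cyp4b1 (chr4:115647722-115647971, minus strand), the member with the highest level, and for Cyp27b1 (chr10:127047996-127048245, plus strand), which moved the other way. The windows of Cyp4b1 and Cyp27b1 held none of the motifs searched.
Cyp2a4: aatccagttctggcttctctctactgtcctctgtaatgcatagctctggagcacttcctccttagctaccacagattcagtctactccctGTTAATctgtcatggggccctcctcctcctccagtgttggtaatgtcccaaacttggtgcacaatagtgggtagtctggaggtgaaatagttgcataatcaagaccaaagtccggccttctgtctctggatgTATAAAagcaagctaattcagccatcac
Cyp4b1: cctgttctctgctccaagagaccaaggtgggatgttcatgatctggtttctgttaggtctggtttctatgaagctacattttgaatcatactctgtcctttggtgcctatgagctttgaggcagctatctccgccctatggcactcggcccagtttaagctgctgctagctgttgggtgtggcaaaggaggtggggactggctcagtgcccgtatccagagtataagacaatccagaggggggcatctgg
Cyp27b1: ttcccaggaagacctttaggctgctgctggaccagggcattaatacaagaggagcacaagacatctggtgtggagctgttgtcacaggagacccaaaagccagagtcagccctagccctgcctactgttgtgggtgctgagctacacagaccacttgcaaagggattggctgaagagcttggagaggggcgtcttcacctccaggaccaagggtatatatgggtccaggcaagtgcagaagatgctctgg

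Library totals were 15626792 to 16426817 counts in IRI KO, 16946876 to 17873558 in IRI WT and 18707315 to 19987842 in sham WT. Gene positions are those of GENCODE M21 on GRCm38 (mm10). Levels are given as CPM, the counts over library sizes scaled by the TMM method. Pfkfb3, the targeted glycolytic regulator, stood at 25.2, 19.7 and 17.3 CPM in IRI KO, at 36.2, 34.4 and 25.3 CPM in IRI WT and at 20, 20.2 and 21.9 CPM in sham WT, and was lower in IRI KO than in IRI WT (log2 fold change -0.62 ± 0.17, adjusted p = 0.00773). All 9 libraries held RNA of Y-linked genes and at most 0.368 CPM of Xist. The summed level of 8 proximal tubule markers of the first and middle segments was 10893 to 12512 CPM in IRI KO, 2112 to 3539 in IRI WT and 12737 to 14572 in sham WT, and that of 6 markers of the last segment was 7745 to 9049 CPM in IRI KO, 1730 to 2493 in IRI WT and 10354 to 11391 in sham WT. All 8 and all 6 were called higher in IRI KO than in IRI WT, where 27.8% of all genes were, with a median log2 fold change of 1.86 and 2.16. Macrophage markers (8 genes) summed to 132 to 167 CPM in IRI KO, 1552 to 1802 in IRI WT and 139 to 195 in sham WT, and 5 fibroblast markers to 143 to 275 CPM in IRI KO, 1990 to 2703 in IRI WT and 118 to 193 in sham WT. In whole tissue, fewer cells of a type and less RNA per cell cannot be told apart, and the part of cell makeup in the differences of P450 genes was not tested. Of the adrenal cortex list Hsd3b1 and Nr5a1 were at 0 in all libraries and the sum of 8 genes was 4.70 to 7.39 CPM. The sum of the 8 genes of the hepatocyte list was 459.6 to 476 CPM in IRI KO, 148 to 169.9 in IRI WT and 375 to 511 in sham WT, mostly from Apob, Ttr and Serpina1a. Of the 6 tested, 4 were higher (27.8% of all genes) and 1 lower (28.1%) in IRI KO than in IRI WT. In IRI WT against sham WT 1 was higher (29.5%) and 3 lower (28.7%). Within this list Cps1 and Tat were at or near 0 and Alb was at most 12.9 CPM, and the part of hepatocyte-type transcripts in the results was not tested. The third IRI WT library was the lowest of its group in several members, and the first IRI KO library was low in endothelial markers (97.6 to 258 CPM summed over 5 genes in IRI KO, against 218 to 249 in IRI WT and 267 to 337 in sham WT).

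P450 transcripts made up 1.04%, 1.04% and 1.07% of all counts in the IRI KO libraries, 0.398%, 0.435% and 0.269% in the IRI WT libraries and 1.27%, 1.28% and 1.40% in the sham WT libraries. The 3 groups did not overlap. Mitochondrial transcripts made up 12.7% to 13.9% of counts in IRI KO, 6.08% to 7.20% in IRI WT and 8.46% to 11.3% in sham WT, also without overlap, and their part in the result was not tested. The summed level of the 47 members was 12126 ± 165 CPM in IRI KO, 2853 ± 758 CPM in IRI WT and 14826 ± 719 CPM in sham WT (SD, n = 3 each), 4.25 times as high in IRI KO as in IRI WT and 5.20 times lower in IRI WT than in sham WT. Cyp4b1, Cyp2e1, Cyp2j5 and Cyp2a4 together held 66.9% to 72.0% of P450 counts in IRI KO, 44.0% to 65.4% in IRI WT and 74.3% to 76.2% in sham WT. Per kilobase of exon these 4 genes were also the highest in sham WT, with mean levels of 2612 CPM per kb for Cyp4b1, 1193 for Cyp2e1, 738 for Cyp2j5 and 551 for Cyp2a4.

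Of the 47 members 46 were tested, Cyp2c69 being too low. In IRI KO against IRI WT 26 members were higher, where 27.8% of all genes tested were called higher, 7 were lower, where 28.1% of all genes were, and 13 were not called at a false discovery rate of 0.05. Of all genes 55.9% were called in either direction. At least 2-fold higher were 25 members (11.7% of all genes) and at least 2-fold lower were 5 (17.4% of all genes). The median log2 fold change was 1.41 over the members and -0.01 over all genes tested. With libraries scaled by their totals alone the median of all genes moved to -0.59, that of the members was 0.84, and 24 members were called higher, where 11.6% of all genes were, and 12 lower, where 57.1% were.

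In IRI WT against sham WT 8 members were higher (29.5% of all genes tested) and 25 were lower (28.7% of all genes), where 58.2% of all genes were called in either direction. At least 2-fold lower were 24 members (11.7% of all genes) and at least 2-fold higher were 5 (18.3% of all genes). The median log2 fold change was -1.23 over the members and 0.03 over all genes. Scaled by totals alone, the medians were -0.69 and 0.57, and 14 members were called higher, where 55.8% of all genes were, and 22 lower, where 12.2% were. This comparison shares the IRI WT libraries with the one between the injured groups, so the values of a gene in both are not independent of each other.

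**Figure D1:**
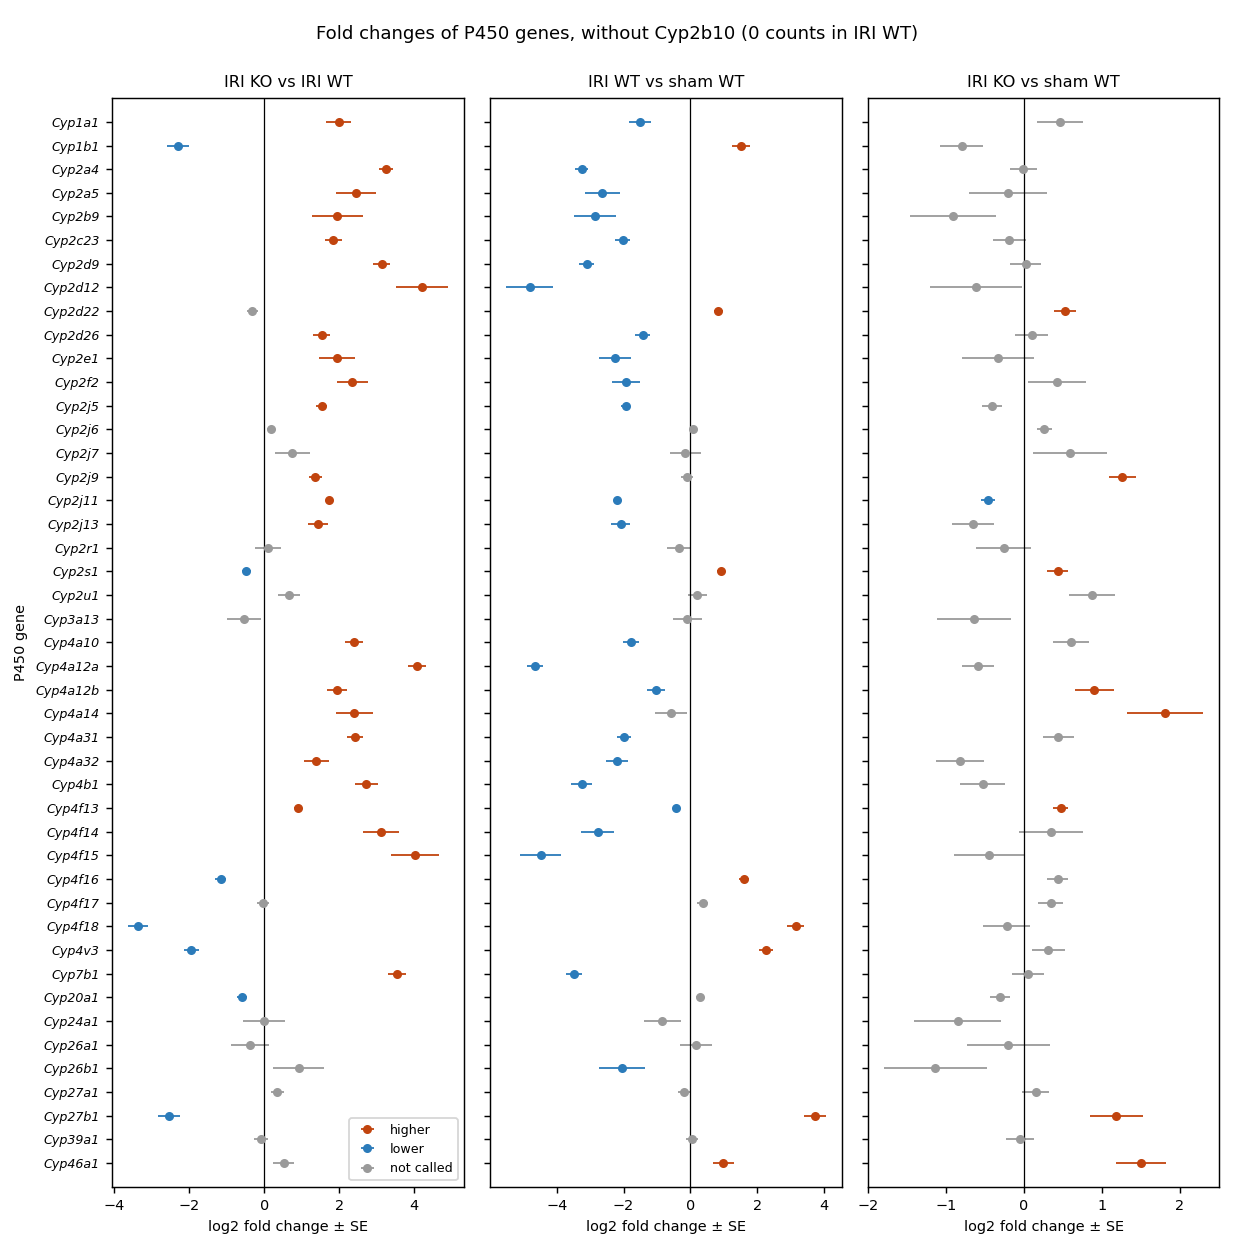
Log2 fold change with its standard error (horizontal axes, which differ between panels) of each tested P450 gene (rows) in IRI KO against IRI WT, IRI WT against sham WT and IRI KO against sham WT; red points were called higher, blue points lower and grey points were not called at a false discovery rate of 0.05. Cyp2b10, with 0 counts in IRI WT, is left out. The red points of the left panel lie between 0.89 and 4.20, and the largest fall there is that of Cyp4f18 (-3.37).

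The most abundant members are broad-range oxidases of foreign compounds and fatty acids. Cyp4b1, which hydroxylates short fatty acids and activates plant toxins (chromosome 4, 115624725 to 115647723, minus strand), had 4277, 3992 and 3976 CPM in IRI KO, 690.4, 860.2 and 304 CPM in IRI WT and 5331, 5558 and 6786 CPM in sham WT. All IRI WT libraries lay far below the other 6, and the IRI KO libraries lay below the sham WT ones. Its log2 fold change was 2.72 ± 0.30 in IRI KO against IRI WT (6.60-fold higher, adjusted p = 1.75e-05) and -3.25 ± 0.31 in IRI WT against sham WT (9.53-fold lower, adjusted p = 5.58e-06). Within each library the counts of Cyp4b1 were 0.742, 0.579 and 0.690 times those of the proximal tubule marker Slc34a1 in IRI KO, 0.337, 0.502 and 0.270 times in IRI WT and 0.813, 0.899 and 0.946 times in sham WT. The groups did not overlap in this ratio, which does not depend on how libraries are scaled, and with 3 libraries against 3 an exact permutation test cannot give a two-sided p below 0.1.

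Cyp2e1, the oxidase of ethanol and other small molecules (chromosome 7, 140763739 to 140774987, plus strand), had 2101, 1970 and 2084 CPM in IRI KO, 728, 759 and 122 CPM in IRI WT and 2777, 2345 and 2601 CPM in sham WT. The third IRI WT library stood apart from the other 2 of its group, and no groups overlapped. Its log2 fold change was 1.94 ± 0.48 in IRI KO against IRI WT (adjusted p = 0.00476) and -2.26 ± 0.48 in IRI WT against sham WT (adjusted p = 0.00184). Without that library the values were 1.46 (adjusted p = 4.40e-06) and -1.79 (adjusted p = 1.54e-06).

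Cyp2a4, a testosterone hydroxylase (chromosome 7, 26307169 to 26315088, plus strand), had 959.8, 947 and 956 CPM in IRI KO, 80.3, 124 and 96.9 CPM in IRI WT and 1152, 969.8 and 751 CPM in sham WT. The IRI WT libraries were the lowest, and the IRI KO libraries lay inside the range of the sham WT ones. Its log2 fold change was 3.25 ± 0.19 in IRI KO against IRI WT (adjusted p = 3.43e-07), -3.25 ± 0.19 in IRI WT against sham WT (adjusted p = 2.92e-07) and -0.01 ± 0.17 in IRI KO against sham WT (adjusted p = 0.988). Its copy Cyp2a5, the coumarin hydroxylase, had 286, 257 and 440.4 CPM in IRI KO, 50.9, 115 and 15.7 CPM in IRI WT and 496, 311 and 327 CPM in sham WT. It was higher in IRI KO than in IRI WT (log2 fold change 2.44 ± 0.53, adjusted p = 0.00212), and 3.30 without the second IRI WT library. In IRI WT against sham WT it fell by 2.64 on the log2 scale (adjusted p = 0.00124), and by 3.51 without that library.

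Of the 4 members of subfamily 2d, Cyp2d9, Cyp2d12 and Cyp2d26 were higher in IRI KO than in IRI WT (27.8% of all genes). Cyp2d22 was not called. Cyp2d9, a testosterone hydroxylase of male mouse liver (chromosome 15, 82433437 to 82456845, plus strand), had 297, 217 and 352 CPM in IRI KO, 26.0, 37.7 and 35.3 CPM in IRI WT and 331, 223 and 302 CPM in sham WT. Only the IRI WT libraries stood apart, with a log2 fold change of 3.13 ± 0.22 in IRI KO against IRI WT (adjusted p = 7.47e-07) and -3.11 ± 0.22 in IRI WT against sham WT (adjusted p = 6.90e-07). Cyp2d12 had 37.9, 144 and 62.2 CPM in IRI KO, 9.98, 1.87 and 1.55 CPM in IRI WT and 184, 73.3 and 116 CPM in sham WT. It varied more within groups than Cyp2d9 did. Its log2 fold change in IRI KO against IRI WT was 4.20 ± 0.70 (adjusted p = 0.000341), 5.57 without the first IRI WT library and 3.50 without the second IRI KO library. In IRI WT against sham WT it was -4.81 ± 0.71 (adjusted p = 0.000140), and -6.18 without the first IRI WT library. Cyp2d26 moved less, at 1.53 ± 0.22 (adjusted p = 0.000109) and -1.43 ± 0.22 (adjusted p = 0.000166) in these comparisons.

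Cyp2d22, often named as the mouse counterpart of the human drug oxidase CYP2D6, had 26.5, 37.8 and 33.5 CPM in IRI KO, 45.9, 36.7 and 39.1 CPM in IRI WT and 22.6, 21.8 and 23.6 CPM in sham WT. The injured groups overlapped and both lay above sham WT. It rose in IRI WT against sham WT (log2 fold change 0.84 ± 0.14, adjusted p = 0.000325). The difference of IRI KO from IRI WT was -0.32 ± 0.14 (adjusted p = 0.0712). The ratio of Cyp2d9 to Cyp2d22 counts in a library was 11.2, 5.74 and 10.5 in IRI KO, 0.566, 1.03 and 0.901 in IRI WT and 14.6, 10.3 and 12.8 in sham WT, near or below 1 in the IRI WT libraries alone. IRI KO and sham WT overlapped in it. Exons of Cyp2d9 and of Cyp2d12 overlap predicted genes on the same strand, from which their counts may not be told apart.

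**Figure D2:**
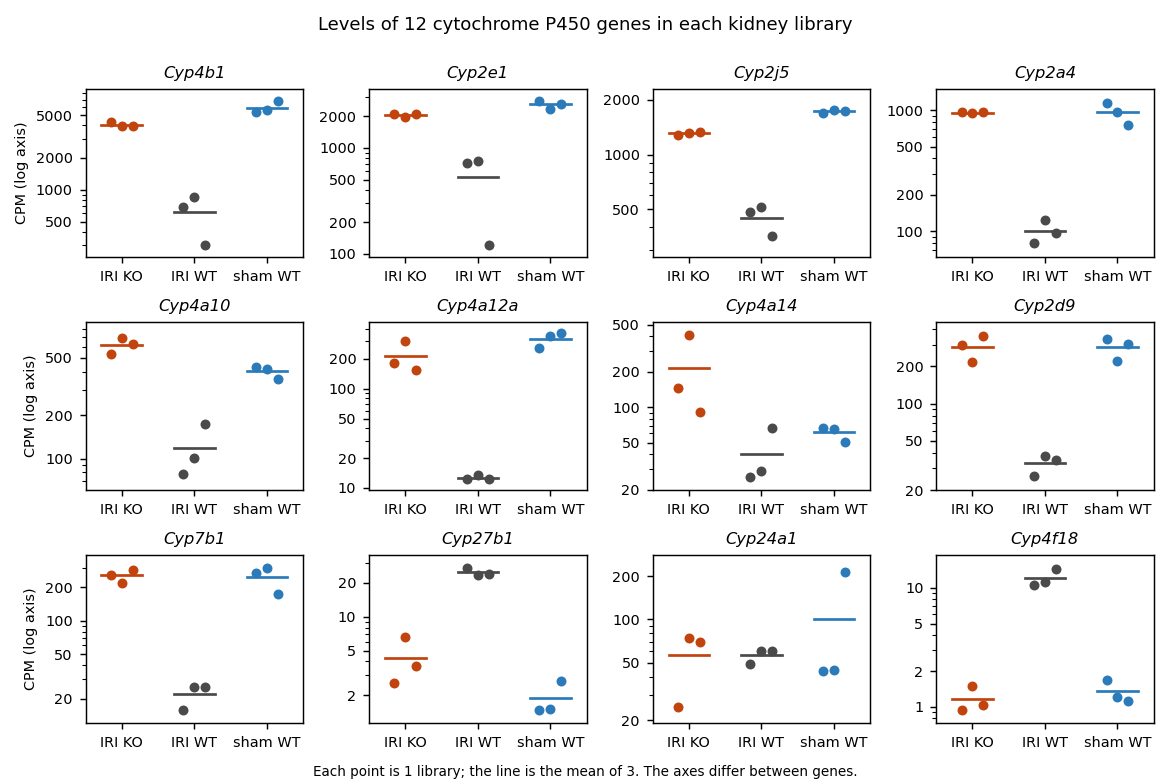
CPM (vertical log axes, which differ between genes) of 12 P450 genes in each of the 3 IRI KO, 3 IRI WT and 3 sham WT libraries (points), with the group mean (line). The IRI WT libraries are the lowest for Cyp4b1, Cyp2e1, Cyp2j5, Cyp2a4, Cyp4a12a, Cyp2d9 and Cyp7b1, the highest for Cyp27b1 and Cyp4f18, and 1 sham WT library stands apart for Cyp24a1 at 215 CPM.

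The epoxygenases of arachidonic acid followed. Cyp2j5, an epoxygenase of the mouse kidney (chromosome 4, 96628773 to 96664154, minus strand), had 1275, 1318 and 1324 CPM in IRI KO, 482, 514 and 357 CPM in IRI WT and 1698, 1763 and 1732 CPM in sham WT. The 3 groups were apart from each other, with the IRI KO libraries in between. Its log2 fold change was 1.53 ± 0.14 in IRI KO against IRI WT (adjusted p = 3.41e-06), -1.94 ± 0.14 in IRI WT against sham WT (adjusted p = 7.98e-07) and -0.41 ± 0.13 in IRI KO against sham WT (adjusted p = 0.0563). Cyp2j11 had 165, 178 and 193 CPM in IRI KO, 54.7, 53.5 and 53.0 CPM in IRI WT and 239, 255 and 242 CPM in sham WT. The groups did not overlap, at 1.73 ± 0.09 in IRI KO against IRI WT (adjusted p = 2.54e-07), and it was lower in IRI KO than in sham WT as well (log2 fold change -0.46 ± 0.09, adjusted p = 0.0100). Cyp2j13 was higher in IRI KO than in IRI WT (1.43 ± 0.27, adjusted p = 0.000866) and lower in IRI WT than in sham WT (-2.09 ± 0.28, adjusted p = 6.06e-05).

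The other 3 members of subfamily 2j were not called lower in IRI WT than in sham WT, where 28.7% of all genes were. Cyp2j9, which hydroxylates arachidonic acid and was described from mouse brain, had 24.6, 18.8 and 22.9 CPM in IRI KO, 8.14, 9.56 and 8.09 CPM in IRI WT and 11, 8.53 and 8.10 CPM in sham WT. The IRI KO libraries lay above all 6 others, which overlapped. It was higher in IRI KO than in IRI WT (log2 fold change 1.36 ± 0.17, adjusted p = 3.22e-05) and than in sham WT (1.26 ± 0.17, adjusted p = 0.00492), and its difference between IRI WT and sham WT was -0.10 ± 0.17 (adjusted p = 0.643), or 0.45 (adjusted p = 0.0298) with scaling by totals alone. Cyp2j6 stood at 43.5 to 49.5 CPM in IRI KO, 38.9 to 45.2 CPM in IRI WT and 37.2 to 41.1 CPM in sham WT, with a log2 fold change of 0.18 ± 0.10 in IRI KO against IRI WT (adjusted p = 0.146) that was -0.40 (adjusted p = 0.00695) with scaling by totals alone. Cyp2j7 stood at 0.667 to 2.68 CPM over all libraries and was not called in any comparison. The ratio of Cyp2j9 to Cyp2j5 counts was 0.0193, 0.0142 and 0.0173 in IRI KO, 0.0169, 0.0186 and 0.0226 in IRI WT and 0.00646, 0.00484 and 0.00467 in sham WT, and both injured groups lay above sham WT. Cyp2c23, an epoxygenase of another subfamily (chromosome 19, 44005022 to 44029208, minus strand), had 32.8, 31.4 and 48.5 CPM in IRI KO, 12.9, 10.4 and 8.09 CPM in IRI WT and 52.4, 33.6 and 42.3 CPM in sham WT. Only IRI WT stood apart, at 1.84 ± 0.23 (adjusted p = 3.53e-05) in IRI KO against IRI WT and -2.03 ± 0.23 (adjusted p = 1.61e-05) in IRI WT against sham WT.

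Of 16 other genes of eicosanoid metabolism, 15 were tested. In IRI KO against IRI WT 1 was higher (27.8% of all genes) and 7 were lower (28.1%). In IRI WT against sham WT 12 were higher (29.5%) and 1 was lower (28.7%). By totals alone the counts were 1 higher (11.6%) and 13 lower (57.1%), and 14 higher (55.8%) and 1 lower (12.2%). The gene that went with the epoxygenases was Ephx2, the soluble hydrolase that opens the epoxides, with 529, 555 and 576 CPM in IRI KO, 202, 196 and 119 CPM in IRI WT and 599, 590.1 and 586 CPM in sham WT. Among those that went the other way, the phospholipase Pla2g4a, which frees arachidonic acid, had 6.07, 6.78 and 5.98 CPM in IRI KO, 16.9, 17.9 and 22.2 CPM in IRI WT and 5.45, 6.04 and 5.95 CPM in sham WT (log2 fold change -1.60, adjusted p = 6.59e-06, in IRI KO against IRI WT). The prostaglandin D synthase Ptgds was lower in IRI KO than in IRI WT by a log2 fold change of -4.36 (adjusted p = 8.78e-07), and macrophage and fibroblast markers moved the same way.

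Subfamily 4a hydroxylates the end carbon of fatty acids, and its 6 genes lie side by side on chromosome 4. All 6 were higher in IRI KO than in IRI WT, where 27.8% of all genes were. In IRI WT against sham WT 5 of 6 were lower (28.7% of all genes), the exception being Cyp4a14. Summed over the 6 genes the level was 1369, 2089 and 1550 CPM in IRI KO, 252, 289.9 and 333 CPM in IRI WT and 1239, 1265 and 1230 CPM in sham WT. Divided by the sum of subfamily 2j in the same library it was 0.695, 1.11 and 0.808 in IRI KO, 0.340, 0.364 and 0.616 in IRI WT and 0.498, 0.472 and 0.464 in sham WT. The IRI KO libraries lay above the other 6 in this ratio, and IRI WT and sham WT overlapped.

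Cyp4a12a, the main arachidonic acid hydroxylase of the male mouse kidney (chromosome 4, 115299046 to 115332815, plus strand), had 180.0, 304 and 156 CPM in IRI KO, 12.4, 13.4 and 12.4 CPM in IRI WT and 259, 339 and 362 CPM in sham WT. The IRI WT libraries lay far below the others, and IRI KO and sham WT overlapped. The log2 fold change was 4.07 ± 0.25 in IRI KO against IRI WT (16.8-fold higher, adjusted p = 3.71e-07) and -4.65 ± 0.25 in IRI WT against sham WT (25.2-fold lower, adjusted p = 2.11e-07). Its near-identical neighbour Cyp4a12b had 43.0, 48.4 and 20.9 CPM in IRI KO, 11, 10.3 and 8.05 CPM in IRI WT and 21.6, 18.1 and 20.4 CPM in sham WT. It moved less, at 1.94 ± 0.26 (adjusted p = 7.63e-05) and -1.03 ± 0.26 (adjusted p = 0.00514) in these comparisons, and the fall in IRI WT was not called with scaling by totals alone. The ratio of Cyp4a12a to Cyp4a12b counts was 4.18, 6.27 and 7.44 in IRI KO, 1.12, 1.3 and 1.53 in IRI WT and 12, 18.7 and 17.8 in sham WT. The 3 groups did not overlap in it.

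Cyp4a10 and Cyp4a14 are known targets of the fatty acid receptor PPARα in mouse. Cyp4a10 (chromosome 4, 115518264 to 115533649, plus strand) had 529, 684 and 629 CPM in IRI KO, 78.5, 101 and 173 CPM in IRI WT and 433, 422 and 357 CPM in sham WT. Its IRI KO libraries were the highest and its IRI WT libraries the lowest, at 2.38 ± 0.24 (adjusted p = 9.05e-06) in IRI KO against IRI WT and -1.78 ± 0.24 (adjusted p = 6.94e-05) in IRI WT against sham WT. Cyp4a14 (chromosome 4, 115486200 to 115496142, minus strand) had 146, 405 and 92.0 CPM in IRI KO, 25.9, 29.0 and 66.8 CPM in IRI WT and 67.3, 65.6 and 50.8 CPM in sham WT. The IRI KO libraries were the highest, with the second far above the others, and IRI WT and sham WT overlapped. The log2 fold change was 2.40 ± 0.50 in IRI KO against IRI WT (adjusted p = 0.00161) and 1.55 without the second IRI KO library (adjusted p = 0.00411). Cyp4a31 and Cyp4a32 were higher in IRI KO than in IRI WT by 2.42 ± 0.22 (adjusted p = 3.37e-06) and 1.39 ± 0.33 (adjusted p = 0.00411), and that of Cyp4a32 was not called with scaling by totals alone. Ppara itself had 14, 11.8 and 13.6 CPM in IRI KO, 5.79, 6.40 and 3.27 CPM in IRI WT and 17.9, 42.7 and 61.1 CPM in sham WT.

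**Figure D3:**
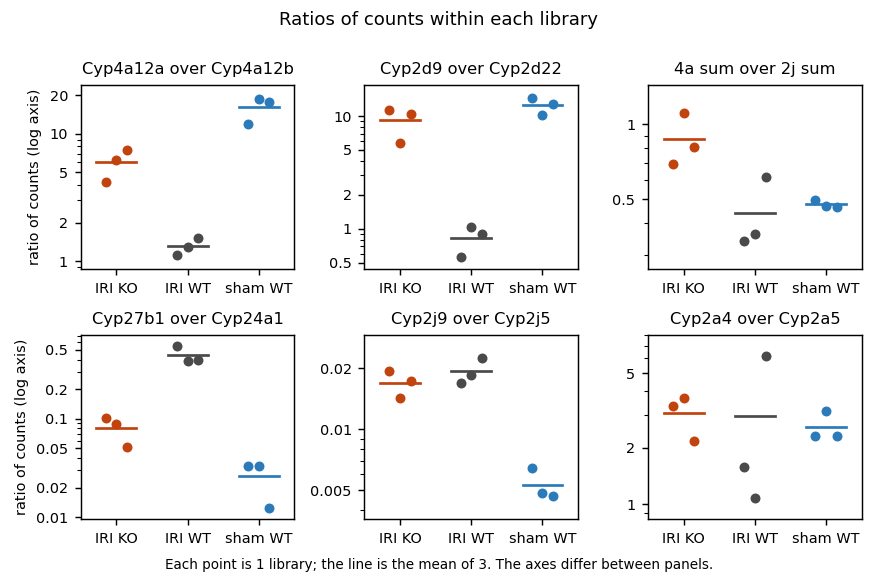
Ratios of raw counts between P450 genes or subfamily sums within each library (vertical log axes, which differ between panels) for the 3 IRI KO, 3 IRI WT and 3 sham WT libraries (points), with the group mean (line). Cyp4a12a over Cyp4a12b runs from 1.12 to 1.53 in IRI WT and from 12 to 18.7 in sham WT with IRI KO in between, and Cyp2a4 over Cyp2a5 overlaps between all groups.

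Subfamily 4f inactivates leukotrienes and other lipids, and its 6 members split. Summed, they stood at 83.0, 85.7 and 82.0 CPM in IRI KO, 72.9, 75.0 and 82.3 CPM in IRI WT and 67.5, 61.0 and 61.1 CPM in sham WT, and the injured groups overlapped. The log2 ratio of the summed level in IRI KO to that in IRI WT was -0.46 with scaling by totals alone, against a ratio of 1.09 as scaled here. Cyp4f13, Cyp4f14 and Cyp4f15 were higher in IRI KO than in IRI WT (27.8% of all genes). Cyp4f16 and Cyp4f18 were lower (28.1%) and Cyp4f17 was not called. Cyp4f13 (chromosome 17, 32924688 to 32947402, minus strand) had 57.0, 58.3 and 55.1 CPM in IRI KO, 31.8, 29.4 and 30.9 CPM in IRI WT and 46.4, 37.2 and 39.8 CPM in sham WT. The groups did not overlap, with IRI KO the highest, at 0.89 ± 0.10 in IRI KO against IRI WT (adjusted p = 2.14e-05) and -0.42 ± 0.10 in IRI WT against sham WT (adjusted p = 0.00401), the last of which was 0.13 (adjusted p = 0.258) with scaling by totals alone.

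Cyp4f18, which in mouse myeloid cells breaks down the attractant leukotriene B4 (chromosome 8, 71988482 to 72009626, minus strand), had 0.950, 1.51 and 1.03 CPM in IRI KO, 10.6, 11.1 and 14.5 CPM in IRI WT and 1.70, 1.22 and 1.13 CPM in sham WT. All IRI WT libraries stood above the rest, at -3.37 ± 0.26 in IRI KO against IRI WT (10.3-fold lower, adjusted p = 1.54e-06) and 3.15 ± 0.25 in IRI WT against sham WT (8.88-fold higher, adjusted p = 1.68e-06). Its exons overlap those of Zfp961 on the other strand, and whether counting used strand was not given in the sources used here. Adgre1, a macrophage marker, had 4.02, 3.84 and 2.2 CPM in IRI KO, 43.0, 40.4 and 49.3 CPM in IRI WT and 4.93, 4.43 and 4.05 CPM in sham WT. Macrophage markers moved with Cyp4f18, 7 of 8 being lower in IRI KO than in IRI WT (28.1% of all genes), and their part in its difference was not tested.

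The other members that were lower in IRI KO than in IRI WT are enzymes of diverse substrates. Cyp1b1, an oxidase of oestrogens and polycyclic hydrocarbons (chromosome 17, 79701537 to 79715061, minus strand), had 10.9, 28.3 and 21.2 CPM in IRI KO, 108, 73.4 and 115 CPM in IRI WT and 37.3, 39.1 and 28.8 CPM in sham WT. The groups did not overlap, at -2.30 ± 0.29 in IRI KO against IRI WT (adjusted p = 4.00e-05) and 1.5 ± 0.27 in IRI WT against sham WT (adjusted p = 0.000657). Fibroblast markers moved the same way, 5 of 5 being lower in IRI KO than in IRI WT (28.1% of all genes), and their part in this was not tested. Cyp4v3, the counterpart of the human gene of a crystalline eye dystrophy, had 3.36, 5.80 and 4.54 CPM in IRI KO, 18.6, 15.7 and 18.6 CPM in IRI WT and 3.52, 4.04 and 3.45 CPM in sham WT, with only IRI WT apart (-1.95 ± 0.20, adjusted p = 8.62e-06, in IRI KO against IRI WT). Cyp4f16 was lower in IRI KO by -1.17 ± 0.14 (adjusted p = 2.46e-05), the orphan enzyme Cyp20a1 by -0.60 ± 0.13 (adjusted p = 0.00169) and the epithelial Cyp2s1 by -0.48 ± 0.12 (adjusted p = 0.00592), all on the log2 scale.

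Cyp1a1, the classical target of the dioxin receptor, lies in the same family as Cyp1b1 and went the other way at a low level. It had 3.58, 3.32 and 2.27 CPM in IRI KO, 0.782, 0.667 and 0.861 CPM in IRI WT and 1.58, 2.55 and 2.5 CPM in sham WT. IRI WT lay below the other groups, at 1.98 ± 0.33 in IRI KO against IRI WT (adjusted p = 0.000316) and -1.51 ± 0.33 in IRI WT against sham WT (adjusted p = 0.00196). The receptor Ahr had 5.63, 5.96 and 7.01 CPM in IRI KO, 12, 17.8 and 13.6 CPM in IRI WT and 8.97, 8.03 and 6.07 CPM in sham WT. Subfamily 2b, targets of the receptor CAR in liver, was near the limit of detection. Cyp2b10 had 27 counts summed over the IRI KO libraries, 0 over IRI WT and 107 over sham WT, which against a floor of 3 counts over the IRI WT group is at least 14.6-fold higher in IRI KO and at least 46.4-fold higher in sham WT, bounds that cover counting error only. Cyp2b9 stayed at or under 1.11 CPM in all libraries, and its call as higher in IRI KO than in IRI WT (1.94 ± 0.68, adjusted p = 0.0295) was lost without the first (1.86, adjusted p = 0.0610) or the third (1.69, adjusted p = 0.0964) IRI KO library or the first (1.56, adjusted p = 0.0976) or second (1.54, adjusted p = 0.0947) IRI WT library, and was 3.35 without the third IRI WT library. In IRI WT against sham WT it was -2.85 ± 0.62 (adjusted p = 0.00207), and -4.26 without the third IRI WT library.

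Among the sterol enzymes, Cyp7b1, which hydroxylates oxysterols on the way to bile acids (chromosome 3, 18071950 to 18243338, minus strand), had 261, 221 and 286 CPM in IRI KO, 15.6, 25.2 and 25.4 CPM in IRI WT and 269, 300.1 and 175 CPM in sham WT. Only the IRI WT libraries stood apart. The log2 fold change was 3.53 ± 0.24 in IRI KO against IRI WT (11.6-fold higher, adjusted p = 6.46e-07), -3.49 ± 0.24 in IRI WT against sham WT (11.2-fold lower, adjusted p = 5.97e-07) and 0.05 ± 0.21 in IRI KO against sham WT (adjusted p = 0.901). Relative to counts of Slc34a1 in the same library it was 0.0453, 0.0321 and 0.0497 in IRI KO, 0.00761, 0.0147 and 0.0226 in IRI WT and 0.0411, 0.0485 and 0.0245 in sham WT, and IRI WT stayed below both other groups.

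The mitochondrial sterol hydroxylase Cyp27a1 had 41.2, 74.5 and 64.1 CPM in IRI KO, 49.5, 45.2 and 47.3 CPM in IRI WT and 54.2, 52.8 and 54.6 CPM in sham WT. It was not called in any comparison, its difference of IRI WT from sham WT being -0.19 ± 0.17 (adjusted p = 0.364). Cyp39a1, another oxysterol hydroxylase, stood at 7.29 to 9.20 CPM in IRI KO, 7.73 to 9.21 CPM in IRI WT and 6.63 to 9.41 CPM in sham WT, and was not called either. Cyp46a1, the cholesterol hydroxylase of neurons, had 2.19, 3.47 and 3.85 CPM in IRI KO, 2.12, 1.91 and 2.63 CPM in IRI WT and 1.06, 1.33 and 0.952 CPM in sham WT. Both injured groups lay above sham WT, at 1.5 ± 0.32 in IRI KO (adjusted p = 0.0115) and 0.99 ± 0.31 in IRI WT (adjusted p = 0.0177), the last of which was lost without the third IRI WT library (0.85, adjusted p = 0.0647) or the third sham WT library (0.89, adjusted p = 0.0614). Of 10 tested partners in oxysterol and bile acid handling, 5 were higher (27.8% of all genes) and 4 lower (28.1%) in IRI KO than in IRI WT. The higher ones included Akr1d1, a reductase of bile acid intermediates, with 32.9, 41.6 and 55.1 CPM in IRI KO, 5.75, 5.20 and 8.01 CPM in IRI WT and 48.8, 47.1 and 37.1 CPM in sham WT, and Scp2, a sterol carrier (log2 fold change 1.75, adjusted p = 5.14e-07).

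Cyp51, the lanosterol demethylase of cholesterol synthesis (chromosome 5, 4081145 to 4104746, minus strand), had 215, 265 and 258 CPM in IRI KO, 61.4, 50.7 and 87.6 CPM in IRI WT and 312, 318 and 256 CPM in sham WT. IRI WT stood apart, at 1.88 ± 0.18 in IRI KO against IRI WT (adjusted p = 6.64e-06) and -2.15 ± 0.19 in IRI WT against sham WT (adjusted p = 2.79e-06). Its exons overlap those of Akap9 on the other strand. Of 23 tested genes of cholesterol synthesis and uptake, 10 were higher (27.8% of all genes) and 2 lower (28.1%) in IRI KO than in IRI WT. In IRI WT against sham WT 3 were higher (29.5%) and 14 lower (28.7%). The median log2 fold changes were 0.49 and -0.72. Scaled by totals alone, these counts were 6 higher (11.6%) and 8 lower (57.1%), and 6 higher (55.8%) and 9 lower (12.2%). Idi1 was among the higher ones, with 32.4, 22.9 and 14.6 CPM in IRI KO, 7.68, 8.36 and 7.71 CPM in IRI WT and 43.8, 64.6 and 44.4 CPM in sham WT, and so were Mvd and Ebp (log2 fold changes 1.17 and 1.37, adjusted p = 2.70e-06 and 5.37e-06).

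The vitamin D enzymes did not move together. Cyp27b1, which makes the active hormone in the proximal tubule and also in macrophages (chromosome 10, 127048250 to 127053006, plus strand), had 2.56, 6.63 and 3.64 CPM in IRI KO, 27.1, 23.4 and 24.1 CPM in IRI WT and 1.47, 1.5 and 2.68 CPM in sham WT. The IRI WT libraries were the highest, and IRI KO and sham WT overlapped. The log2 fold change was -2.54 ± 0.30 in IRI KO against IRI WT (5.82-fold lower, adjusted p = 2.74e-05) and 3.73 ± 0.32 in IRI WT against sham WT (13.2-fold higher, adjusted p = 2.88e-06). Macrophage markers rose in IRI WT as well, and their part in its difference was not tested. Cyp24a1, which inactivates the hormone (chromosome 2, 170482708 to 170497145, minus strand), had 24.8, 74.1 and 70.1 CPM in IRI KO, 49.2, 60.7 and 60.2 CPM in IRI WT and 44.0, 44.6 and 215 CPM in sham WT. All groups overlapped, with the third sham WT library alone far above. The log2 fold change of IRI WT against sham WT was -0.84 ± 0.56 (adjusted p = 0.219) and 0.36 (adjusted p = 0.425) without that library. Its exons overlap those of Pfdn4 on the other strand.

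The ratio of Cyp27b1 to Cyp24a1 counts was 0.103, 0.0895 and 0.0520 in IRI KO, 0.552, 0.386 and 0.400 in IRI WT and 0.0333, 0.0335 and 0.0124 in sham WT. The 3 groups did not overlap in it, with IRI WT the highest. Cyp2r1, which takes the first step from vitamin D and acts mainly in liver, stood between 0.732 and 1.43 CPM in all libraries and was not called. Of 13 other genes of vitamin D and mineral handling, 9 were higher (27.8% of all genes) and 2 lower (28.1%) in IRI KO than in IRI WT. In IRI WT against sham WT 2 were higher (29.5%) and 8 lower (28.7%). Scaled by totals alone, 7 were higher (11.6%) and 3 lower (57.1%) between the injured groups. Lrp2 and Cubn, the receptors that bring vitamin D into the proximal tubule, had log2 fold changes of 1.80 and 1.63 in IRI KO against IRI WT (adjusted p = 3.50e-06 and 4.46e-07). Gc, the vitamin D carrier of plasma, went the other way, with 19.1, 15.2 and 18.2 CPM in IRI KO, 67.6, 92.5 and 87.1 CPM in IRI WT and 23.6, 20.9 and 24.7 CPM in sham WT (-2.24, adjusted p = 4.81e-07). Vdr, the hormone's receptor, had 259, 279 and 259 CPM in IRI KO, 120.3, 106 and 128 CPM in IRI WT and 242, 283 and 316 CPM in sham WT.

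The retinoic acid hydroxylases were low. Cyp26b1 had 1.53, 24.9 and 4.47 CPM in IRI KO, 7.04, 4.62 and 4.69 CPM in IRI WT and 28.6, 16.1 and 23.0 CPM in sham WT. The IRI KO libraries spread over the range of the other groups. It was lower in IRI WT than in sham WT (log2 fold change -2.05 ± 0.68, adjusted p = 0.0217), a call lost without the second (-1.95, adjusted p = 0.0652) or the third (-1.95, adjusted p = 0.0664) IRI WT library or the first sham WT library (-1.84, adjusted p = 0.0720). In IRI KO against IRI WT it was 0.91 ± 0.69 (adjusted p = 0.282), and -0.85 (adjusted p = 0.107) without the second IRI KO library. Cyp26a1 stood at 0.221 to 0.714 CPM and was not called. Of 14 tested genes of retinoid handling, 4 were higher (27.8% of all genes) and 7 lower (28.1%) in IRI KO than in IRI WT. With scaling by totals alone 2 were higher (11.6%) and 8 lower (57.1%). The retinoic acid synthase Aldh1a2 had 4.38, 3.77 and 2.54 CPM in IRI KO, 78.6, 69.7 and 92.3 CPM in IRI WT and 4.16, 2.49 and 2.92 CPM in sham WT.

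The remaining members were low. Cyp4f14 had 2.34, 1.81 and 2.54 CPM in IRI KO, 0.230, 0.400 and 0.129 CPM in IRI WT and 1.52, 2.66 and 1.07 CPM in sham WT. Cyp4f15 had 1.02, 1.81 and 1.86 CPM in IRI KO, 0.138, 0.133 and 0 CPM in IRI WT and 1.47, 2.10 and 2.86 CPM in sham WT. Cyp2f2, the naphthalene oxidase of mouse airways, had 2.41, 2.26 and 3.16 CPM in IRI KO, 0.782, 0.533 and 0.215 CPM in IRI WT and 2.17, 1.72 and 1.96 CPM in sham WT. In all of these IRI WT lay below both other groups, and each was called higher in IRI KO than in IRI WT and lower in IRI WT than in sham WT. Cyp4f17 (9.40 to 14.5 CPM over all libraries), Cyp2u1 (4.05 to 12 CPM) and Cyp3a13 (0.413 to 1.61 CPM) were not called in any comparison. Cyp2c69, which was not tested, had 0.731, 0.603 and 0.413 CPM in IRI KO, 0.276, 0.0444 and 0 CPM in IRI WT and 0.469, 0.609 and 1.67 CPM in sham WT.

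By subfamily, the ratio of the mean summed level in IRI KO to that in IRI WT was 11.6 for 7b, 7.96 for 2a, 6.60 for 4b, 5.73 for 4a, 4.40 for 2d, 3.82 for 2e and 2.78 for 2j. It was 3.69 for Cyp51, 1.27 for 27a, 1.09 for 4f and 0.994 for 24a, and it was 0.259 for 4v, 0.204 for 1b and 0.172 for 27b. Mean sums were 4082 ± 169 CPM in IRI KO, 618 ± 285 CPM in IRI WT and 5892 ± 783 CPM in sham WT for 4b, and 1923 ± 44.4 CPM in IRI KO, 693 ± 135 CPM in IRI WT and 2607 ± 103 CPM in sham WT for 2j (SD, n = 3 each). None of the sums of 7b, 2a, 4b, 4a, 2d, 2e and 2j overlapped between IRI KO and IRI WT. Differences between the ratios of subfamilies were not tested. For 27a the mean sum was 59.9 ± 17.0 CPM in IRI KO, 47.3 ± 2.14 CPM in IRI WT and 53.8 ± 0.951 CPM in sham WT, and the log2 ratio of IRI WT to sham WT turned to 0.36 with scaling by totals alone.

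**Figure D4:**
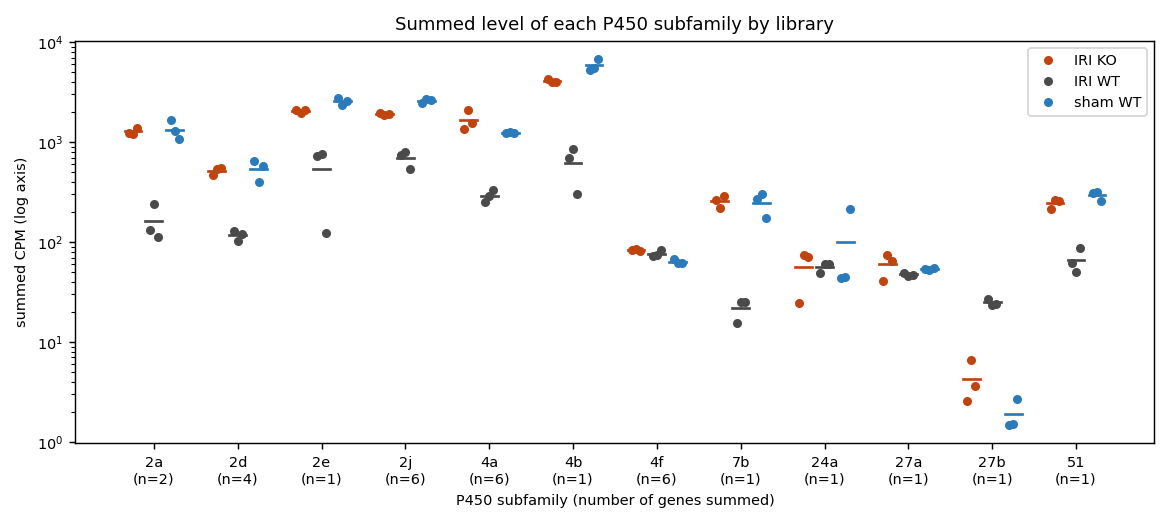
Summed CPM (vertical log axis) of P450 subfamilies (horizontal axis, with the number of genes summed) in each IRI KO, IRI WT and sham WT library (points, from left to right), with the group mean (line). The IRI WT libraries are the lowest in 2a, 2d, 2e, 2j, 4a, 4b, 7b and 51 and the highest in 27b, and the injured groups overlap in 4f, 24a and 27a.

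In IRI KO against sham WT fewer genes differed. Of the 46 tested members 8 were higher (8.13% of all genes tested), 1 was lower (9.48% of all genes) and 37 were not called, where 17.6% of all genes were called in either direction, and 4 were at least 2-fold higher (1.39% of all genes). Scaled by totals alone, 7 were higher (6.84% of all genes) and 2 lower (10.7%). The median log2 fold change was 0.01 over the members and 0.01 over all genes. The higher ones were Cyp2j9 and Cyp46a1, given above, Cyp4a14 (1.81 ± 0.49, adjusted p = 0.0284), Cyp27b1 (1.18 ± 0.34, adjusted p = 0.0356), Cyp4a12b (0.90 ± 0.25, adjusted p = 0.0330), Cyp2d22 (0.52 ± 0.14, adjusted p = 0.0276), Cyp4f13 (0.47 ± 0.10, adjusted p = 0.0129) and Cyp2s1 (0.43 ± 0.13, adjusted p = 0.0363), and the lower one was Cyp2j11. IRI KO and sham WT overlapped in Cyp4a12b and Cyp27b1. The counts moved when single libraries were left out, and so did the share of all genes in several cases. Without the second sham WT library 2 members were called higher (1.78% of all genes), and without the third sham WT library 3 were (2.85%). Without the second IRI KO library 3 were higher (4.98%), without the third IRI KO library 5 (4.78%) and without the first sham WT library 4 (8.15%). The number higher rose to 11 without the third IRI WT library (8.33%). Without the second IRI KO library Cyp4a14 was at 0.96 (adjusted p = 0.0983) and Cyp27b1 at 0.73 (adjusted p = 0.120). The number lower was 5 without the third IRI WT library (9.82% of all genes), 4 without the second IRI KO library (6.01%) and 2 without the first sham WT library (9.53%). More members were also called lower with DESeq2, with those 2 groups fitted alone and with no filter on low counts, as given in the closing section. A member that was not called is not shown to be at its sham level, and the log2 fold change of Cyp4b1, for example, was -0.53 ± 0.29 (adjusted p = 0.216). The spread behind this value is shared with the IRI WT libraries. With only the 2 groups compared fitted, Cyp4b1 was at -0.52 (adjusted p = 0.0213). Cyp2j5 and Cyp2j13 were also called lower in that fit (adjusted p = 0.0207 and 0.0213). Cyp4a10 and Cyp2u1 were called higher there (adjusted p = 0.0161 and 0.0436), and the calls of Cyp27b1 and Cyp2s1 were lost.

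The partners that P450s need were also measured. Por, the reductase that feeds all microsomal P450s, had 505, 581 and 580.3 CPM in IRI KO, 127, 161 and 112 CPM in IRI WT and 537, 602 and 562 CPM in sham WT. Only IRI WT stood apart, at 2.06 in IRI KO against IRI WT (adjusted p = 6.57e-07) and -2.09 in IRI WT against sham WT (adjusted p = 5.39e-07). Of 9 electron donors and other partners of P450s, 8 were higher in IRI KO than in IRI WT (27.8% of all genes). The number lower was 0 (28.1%). In IRI WT against sham WT 0 were higher (29.5%) and 6 lower (28.7%). With scaling by totals alone these counts were 4 higher (11.6%) and 2 lower (57.1%), and 4 higher (55.8%) and 4 lower (12.2%). The donor Cyb5a kept its direction, with 1139, 1106 and 1244 CPM in IRI KO, 370.3, 370.2 and 265 CPM in IRI WT and 1223, 978 and 1032 CPM in sham WT.

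Of 10 genes of haem synthesis, 9 were higher (27.8% of all genes) and 0 lower (28.1%) in IRI KO than in IRI WT. In IRI WT against sham WT 1 was higher (29.5%) and 7 lower (28.7%). With scaling by totals alone 7 were higher (11.6%) and 0 lower (57.1%) between the injured groups. Under that scaling 1 was higher (55.8%) and 3 lower (12.2%) in IRI WT than in sham WT. Fech, which inserts the iron, had 156, 159.7 and 161 CPM in IRI KO, 65.0, 69.6 and 57.7 CPM in IRI WT and 181, 197 and 213 CPM in sham WT. Cpox was higher in IRI KO than in IRI WT by 1.20 on the log2 scale (adjusted p = 1.24e-05). Of 4 genes of haem breakdown 3 were higher in IRI KO than in IRI WT (27.8% of all genes), and 0 with scaling by totals alone (11.6%). The flavin monooxygenases, drug oxidases without haem, were all higher in IRI KO than in IRI WT (5 of 5, against 27.8% of all genes). All were lower in IRI WT than in sham WT (5 of 5, against 28.7%). Fmo1 stood at 484, 782 and 781 CPM in IRI KO, 231, 223 and 150.1 CPM in IRI WT and 847, 759 and 787 CPM in sham WT.

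Of 17 tested nuclear receptors and partners that regulate P450 genes, 11 were higher (27.8% of all genes) and 3 lower (28.1%) in IRI KO than in IRI WT. In IRI WT against sham WT 2 were higher (29.5%) and 11 lower (28.7%). With scaling by totals alone these counts were 5 higher (11.6%) and 5 lower (57.1%), and 5 higher (55.8%) and 8 lower (12.2%). Hnf4a, a factor of tubule and liver identity, had 891, 668 and 734 CPM in IRI KO, 291, 284 and 229 CPM in IRI WT and 983, 1070 and 1112 CPM in sham WT. The groups did not overlap, at 1.51 in IRI KO against IRI WT (adjusted p = 4.09e-06) and -0.46 in IRI KO against sham WT (adjusted p = 0.0376). Of 6 other androgen-dependent or sex-biased kidney genes, 4 were higher (27.8% of all genes) and 1 lower (28.1%) in IRI KO than in IRI WT. In IRI KO against sham WT 0 were higher (8.13%) and 3 lower (9.48%). Slco1a1 averaged 159 CPM in IRI KO, 52.5 in IRI WT and 448 in sham WT, and Acsm3 averaged 282, 33.3 and 442. Kap, the kidney androgen-regulated protein, had 34897, 35416 and 38656 CPM in IRI KO, 7486, 7256 and 2410 CPM in IRI WT and 32927, 24332 and 23489 CPM in sham WT. The third IRI WT library was its lowest, as it was for Cyp2e1 and Cyp4b1.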

How the data were processed

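Total RNA of whole kidney from mice gave 9 libraries, made with the NEBNext Ultra kit, per the labels' protocols. The deposited table holds raw counts per Ensembl gene identifier. Per the submitters' processing notes the genome was mm10 and DESeq2 1.16.1 was used, in a role that is not stated; the aligner, the counter, the annotation and any strand setting were not given in the sources used here. Reads of near-identical copies may therefore be lost or divided, and genes overlapping on opposite strands may share counts.

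Of 56305 identifiers 55227 matched GENCODE M21 symbols and 1078 did not. Genes with enough counts by filterByExpr (15974) were fitted with edgeR 4.0.16 (R 4.3.3), with TMM factors of 0.850 to 0.886 in IRI KO, 1.26 to 1.35 in IRI WT and 0.863 to 0.904 in sham WT, one term per group over all 9 libraries and the quasi-likelihood test, with Benjamini-Hochberg adjustment over all genes tested and a threshold of 0.05. The ± after a log2 fold change is the standard error. Each value rests on library totals of 15626792 to 19987842 counts; reads carry no molecular identifiers.

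The alternatives were other scalings, other filters on low counts, DESeq2 1.42.0, the 2 groups compared alone, a replicate block, a fold limit and leaving out each library. Samples with the same replicate number did not deviate together (correlations of -0.119 to 0.063). The members and gene lists were chosen with earlier results of these data known. By rule the text names the members of subfamilies 2d, 2e, 2j, 4a, 4b, 7b, 24a, 27a and 27b and Cyp51, other members with a mean of at least 5 CPM in some group or among the 3 largest changes of a comparison, the 2 genes of each companion list with the smallest p in either injury comparison, and Pfkfb3. The other members and Adgre1, Ahr, Alb, Apob, Cps1, Ephx2, Hsd3b1, Nr5a1, Ppara, Serpina1a, Slc34a1, Tat, Ttr, Vdr and Xist were named after their values were seen. Some genes of the lists are not reported here.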

Additional observations from a re-analysis of the deposited data

How the results depend on the processing

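With libraries scaled by their totals alone, 12 members were lower in IRI KO than in IRI WT (7 with TMM), where the share of all genes was 57.1% (28.1% with TMM), 14 were higher in IRI WT than in sham WT (8 with TMM), where it was 55.8% (29.5% with TMM), and 2 were lower in IRI KO than in sham WT (1 with TMM), where it was 10.7% (9.48% with TMM). Under that scaling the log2 fold change was -0.40 for Cyp2j6 in IRI KO against IRI WT, and 0.45 for Cyp2j9 and 0.13 for Cyp4f13 in IRI WT against sham WT, each of the opposite sign to that with TMM. So were the log2 ratios of the summed levels of 4f (-0.46) and 46a (-0.07) in IRI KO against IRI WT and of 27a (0.36) in IRI WT against sham WT. With a limit of 2-fold 5 members were higher in IRI WT than in sham WT (18.3% of all genes). In IRI KO against sham WT 4 were higher (1.39%) and 0 lower (1.36%). The number lower in IRI KO than in sham WT was 10 with no filter on low counts (6.85% of all genes). It was 5 with DESeq2 (12.5%) and 4 with those 2 groups fitted alone (7.53%). The cause was not tested. The replicate block left 4 members higher (5.90% of all genes) and 1 lower (6.92%) in that comparison. It left 26 higher (26.7%) and 7 lower (26.7%) in IRI KO against IRI WT. In IRI WT against sham WT it left 8 higher (28.2%) and 25 lower (27.5%). Leaving out 1 library in turn gave 25 to 28 members higher and 7 to 8 lower in IRI KO against IRI WT, 7 to 9 higher and 24 to 25 lower in IRI WT against sham WT, and 2 to 11 higher and 1 to 5 lower in IRI KO against sham WT. Over the genes named by rule and their alternatives, 72 calls were gained and 66 were lost with the sign kept. The 3 log2 fold changes named above turned in sign with a call under 1 of the scalings only, and 3324 values were the same. These genes include Cyp51, genes of the companion lists and Pfkfb3, and leave out the members not named by rule. Members under about 1 CPM rest on few counts, so differences in them may not be detectable at this depth.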
